A study of Mus musculus with 4 samples.

Results

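The genes described here are 10 markers of the choroid plexus epithelium, Ttr, Folr1, Kl, Clic6, Kcnj13, Cldn2, Otx2, Aqp1, Sostdc1 and Kcne2, measured among 16793 named genes in mouse dorsal hippocampus. They were taken by name, through the RefSeq accession of each probe, but the list was chosen with earlier results of these data known. The samples were total RNA of female mice, collected once a battery of behavioural tests was over. Of the 4 arrays, 2 carried mice on 20-fold iodine intake (replicates 2 and 3) and 2 carried mice on control intake (replicates 2 and 3). Strain, age and the timing of the iodine intake are not given in the labels used here. Nor do the labels say that replicates were separate animals, so the p-values below reflect the scatter of these samples alone, and that scatter could be technical. The arrays lay on 1 slide read in 1 scan, with the 20-fold iodine samples in columns 3 and 4 and the controls in columns 1 and 2, so slide position and group cannot be told apart.

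The choroid plexus is a fold of vessels covered by a secretory epithelium that hangs in the brain ventricles and makes cerebrospinal fluid. The epithelium moves salt and water into the fluid and takes up folate and other nutrients from blood. Its main secreted protein is transthyretin, which binds thyroxine, the iodine-containing hormone of the thyroid, and carries it in the cerebrospinal fluid. The labelled tissue is hippocampus, and 10 of 10 marker genes of hippocampal granule and pyramidal neurons were well above background on all 4 arrays. The 10 choroid plexus genes were detected as firmly, each by at least 1 probe well above background on all 4 arrays. Of 6 genes of the liver, the other main source of transthyretin, Alb, Ahsg and Fgb were not well above background on any array. Apoa2 and Apoh were so on all 4 arrays, and Serpina1a on 1 array of each group.

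The array carried 14 probes for these genes, and 13 cleared background on 2 or more arrays and were kept for testing. Of the 10 genes, 4 had several probes. Promoters are shown because the genes had like profiles across the arrays, and RefSeq (build GRCm38.p6) gave a start site window of 300 bases, 250 before to 50 after the start, for 6 of the 10, with several windows for Otx2 and Kcne2. Ttr, Folr1, Clic6 and Sostdc1 had no window in that table. Several letter patterns were searched on both strands: TAATCC, the core that Otx2 and related homeodomain proteins bind, TGTTTAC, a forkhead core, and TATAAA, the TATA box. Below are the windows of Kcnj13 (chr1:87394680-87394979, minus strand), Cldn2 (chrX:139800558-139800857, plus strand) and the Otx2 start that holds TAATCC on its reverse strand (chr14:48665060-48665359, minus strand). Capitals mark TATAAA in Kcnj13 and Cldn2, and GGATTA, the reverse of TAATCC, in Otx2.
Kcnj13: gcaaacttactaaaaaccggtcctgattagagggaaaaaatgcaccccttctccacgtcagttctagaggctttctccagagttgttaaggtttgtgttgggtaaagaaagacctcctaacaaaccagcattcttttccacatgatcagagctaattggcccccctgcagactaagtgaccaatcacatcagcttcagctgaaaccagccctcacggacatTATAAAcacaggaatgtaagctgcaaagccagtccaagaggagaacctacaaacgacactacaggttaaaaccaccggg
Cldn2: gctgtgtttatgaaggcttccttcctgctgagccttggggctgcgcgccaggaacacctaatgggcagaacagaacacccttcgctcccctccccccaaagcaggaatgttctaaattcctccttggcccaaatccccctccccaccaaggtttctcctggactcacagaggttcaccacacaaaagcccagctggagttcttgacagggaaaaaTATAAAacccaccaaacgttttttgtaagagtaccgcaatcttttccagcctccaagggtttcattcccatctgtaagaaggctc
Otx2: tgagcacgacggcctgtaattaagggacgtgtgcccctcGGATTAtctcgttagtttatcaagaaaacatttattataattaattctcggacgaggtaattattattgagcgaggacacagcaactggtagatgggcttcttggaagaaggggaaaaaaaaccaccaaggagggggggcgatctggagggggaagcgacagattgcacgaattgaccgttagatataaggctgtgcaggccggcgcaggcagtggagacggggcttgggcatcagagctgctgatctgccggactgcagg
The TATAAA of Kcnj13 begins 29 bases before the start site and that of Cldn2 35 bases before it. Of the 10 windows of the 6 genes, 3 held TATAAA (13.6% of 32851 mouse windows do), 1 held TAATCC (7.06%) and 0 held TGTTTAC (3.65%). The third window with TATAAA belongs to another start of Otx2. These matches are descriptions of letters and not of binding, and any part of promoters in the like profiles was not tested.

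On the arrays, the 2 samples of the 20-fold iodine group stood at opposite ends. All 10 genes had their lowest signal on 20-fold iodine replicate 2 and their highest on 20-fold iodine replicate 3, with both controls between, a pattern that 7.20% of all genes tested showed. Taken singly, 22.4% of all genes were lowest on that first array and 21.9% highest on the other. The gap between the 2 iodine arrays was 1.27 to 2.50 on the log2 scale (2.41-fold to 5.65-fold), with a median of 2.25. The 2 control arrays differed by at most 0.39. Neither gap has a test, since each sets 1 array against 1 array. In tissue pieces, fewer cells of a type and less RNA per cell cannot be told apart. Signals below are normalized log2 intensities, each from the brightest kept probe of the gene.

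Ttr, which encodes transthyretin, had log2 signals of 12.86 and 15.23 in 20-fold iodine replicates 2 and 3, against 14.49 and 14.31 in control replicates 2 and 3. The 2 iodine samples thus differed 5.16-fold, while the controls were close together and lay between them. The group means were 14.05 ± 1.67 in 20-fold iodine and 14.40 ± 0.13 in control (SD, n = 2 each), a difference of -0.35 with a 95% confidence interval of -2.62 to 1.91 (limma, adjusted p = 0.937). That interval runs from 0.163-fold to 3.77-fold, so a change of several fold in either direction was not excluded by these samples. A second Ttr probe, at 7.54 and 10.07 in iodine and 9.12 and 9.02 in control, had the same order of arrays and a difference of -0.27.

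Folr1 encodes folate receptor alpha, which the plexus uses to pass folate into cerebrospinal fluid. Its log2 signals were 7.49 and 9.33 in 20-fold iodine and 8.92 and 8.92 in control. The controls were almost equal, so the whole spread was that of the iodine pair. Its second probe gave 3.31 and 4.80 in iodine and 4.09 and 4.44 in control. Kl encodes klotho, the co-receptor for the hormone FGF23, which the plexus also sheds. Kl had 7.40 and 8.67 in 20-fold iodine, against 8.20 and 8.05 in control, and its 2.41-fold gap between iodine samples was the smallest of the 10 genes.

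Among the genes of water and ion transport, Aqp1 encodes the water channel of the epithelium's ventricular face. Aqp1 had log2 signals of 6.12 and 8.38 in 20-fold iodine, against 7.21 and 7.49 in control, and its iodine replicate 3 stood 2.04-fold above the control mean, the furthest of the 10 genes. Kcnj13 encodes the inward rectifier potassium channel Kir7.1. Its signals were 6.60 and 9.10 in 20-fold iodine and 8.49 and 8.44 in control. Kcnj13 had the widest iodine gap of the 10, at 5.65-fold, and its iodine replicate 2 lay 3.64-fold below the control mean. Kcne2 encodes a small subunit that modifies potassium channels in the plexus and, with Kcnq1, in the mouse thyroid, where it supports iodide uptake. Kcne2 had 6.29 and 8.30 in 20-fold iodine, against 7.68 and 7.63 in control. Clic6, of the chloride intracellular channel family, had 7.16 and 9.53 in 20-fold iodine, against 8.91 and 8.73 in control, a gap of 5.17-fold within the iodine pair. In all 4 genes the iodine samples enclosed the controls.

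Cldn2 encodes claudin-2, the tight junction protein that makes the plexus epithelium leaky to small cations. Its kept probe had log2 signals of 3.27 and 5.53 in 20-fold iodine, against 4.70 and 4.60 in control. A second Cldn2 probe was not well above background on any array. Otx2 encodes a homeodomain transcription factor needed to form and keep the plexus in mice. Otx2 had 5.60 and 7.84 in 20-fold iodine and 7.29 and 6.91 in control, the widest control gap of the 10 genes. Its dimmer probe, not well above background on iodine replicate 2, gave 2.02 and 4.28 in iodine and 3.26 and 3.31 in control. Sostdc1 encodes a secreted inhibitor of bone morphogenetic proteins. Its signals were 5.73 and 7.27 in 20-fold iodine and 6.50 and 6.56 in control, so that here too the controls were nearly equal and lay inside the iodine pair. In 13 of 13 kept probes iodine replicate 2 was lowest and iodine replicate 3 highest, against 6.89% of the 38228 probes tested. Which control was higher varied between probes.

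**Figure D1:**
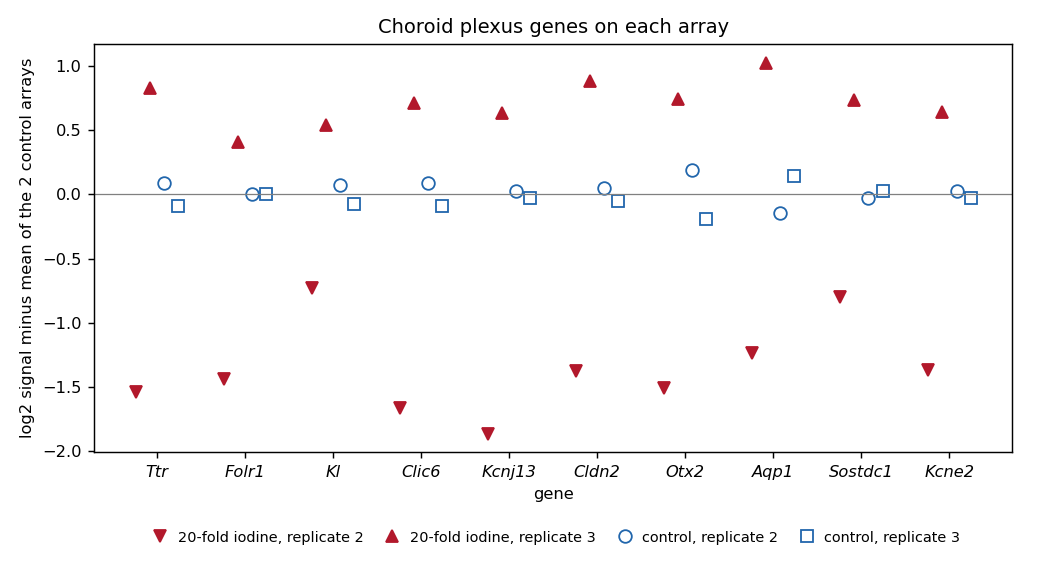
Log2 signal of the 10 choroid plexus genes on each array, less the mean of the 2 control arrays; filled triangles are the 20-fold iodine samples and open symbols the controls, 1 point per array. In every gene iodine replicate 3 lies above (0.41 to 1.03) and iodine replicate 2 below (-1.86 to -0.73) both controls.

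Between the groups, no choroid plexus gene passed the test. In limma's fit over 16793 genes with Benjamini-Hochberg adjustment, 0 of the 10 had an adjusted p under 0.05 (0.00% of all genes did) and 0 had an unadjusted p under 0.05 (7.38% of all genes, 3.49% with the lower mean in iodine). The stricter description of an unadjusted p under 0.05, a fold of 1.5 or more and groups apart was met by 0 of the 10 and by 1.04% of all genes. Adjusted p ranged from 0.868 for Folr1 to 0.995 for Sostdc1. All 10 fitted differences were below 0, from -0.61 ± 0.87 for Kcnj13 and -0.51 ± 0.64 for Folr1 to -0.03 ± 0.54 for Sostdc1 (SE, n = 2 per group). With normexp background correction Aqp1, Cldn2 and Sostdc1 were above 0, at 0.022, 0.079 and 0.036. In the first setting the median of the 10 was -0.36, against -0.01 over all genes, of which 54.3% had a difference below 0. The groups overlapped in all 10, whereas the arrays of the groups were apart in 39.9% of all genes. The SE of the 10 genes, 0.45 to 0.87, compares with a median of 0.09 over all genes tested.

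The sign of these differences rested on single arrays. Without 20-fold iodine replicate 2, all 10 genes were above the control mean, by 0.41 for Folr1 to 1.03 for Aqp1, with a median of 0.72 (smallest adjusted p = 0.661). Without 20-fold iodine replicate 3, all 10 lay below it, by -1.86 for Kcnj13 to -0.73 for Kl, with a median of -1.41 (smallest adjusted p = 0.313). Each of these fits leaves 1 iodine array, assumed to vary like the controls, and 0 of the 10 passed in either. Without control replicate 3, Aqp1 (0.040) and Sostdc1 (0.0015) were also above 0. At probe level, 0 of 13 kept probes passed among 38228 (0.00% of which did), and 0 had an unadjusted p under 0.05 (9.03%).

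**Figure D2:**
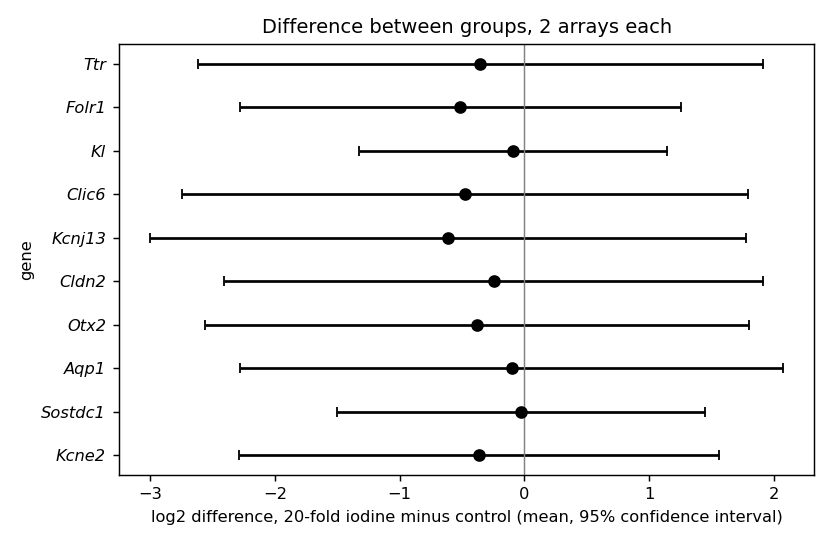
Fitted log2 difference of each choroid plexus gene, 20-fold iodine minus control, with its 95% confidence interval (limma, 2 arrays per group). Every interval spans 0, from the narrowest, Kl (-1.32 to 1.14), to the widest, Kcnj13, which reaches up to 1.77.

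The gap inside the iodine group set these genes apart in size from most others on the arrays. A range over the 4 arrays of at least 1 on the log2 scale was found in 10 of the 10, against 3.81% of all genes. Iodine replicate 3 exceeded iodine replicate 2 by at least 1 in 257 genes (1.53%), which include all 10. Of these 257, 219 were neither among the 10 nor among the other choroid plexus genes listed below. The reverse, replicate 2 above replicate 3 by as much, held for 23 genes (0.137%), and the 2 controls were that far apart in 173 genes (1.03%), none of them among the 10. By the size of the iodine gap the 10 genes ranked from 12 (Kcnj13) to 150 (Kl) of 16793, with Ttr at 19. The median absolute gap over all genes was 0.11 for the iodine pair and 0.10 for the control pair, while gaps of at least 1 in either direction were found in 280 genes (1.67%) for the iodine pair. These comparisons describe genes that were chosen with earlier results of these data known.

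**Figure D3:**
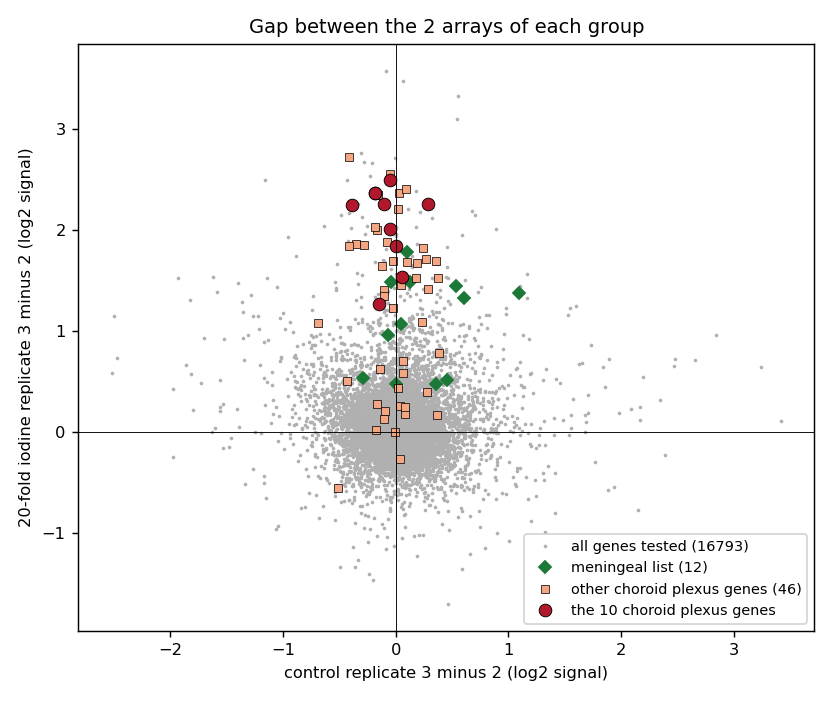
Replicate 3 minus replicate 2 in the 20-fold iodine group (vertical) against the same in the control group (horizontal), log2 signal, 1 point per gene. The 10 choroid plexus genes lie at 1.27 to 2.50 on the vertical axis and -0.39 to 0.28 on the horizontal one; all 46 other choroid plexus genes and 12 meningeal genes are marked over the 16793 genes tested.

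Further choroid plexus genes, listed by role, showed the same order of arrays in most cases. That order leaves out which of the 2 controls was higher. Of 46 such genes tested, 35 (76.1%) were lowest on iodine replicate 2 and highest on iodine replicate 3, and 28 had an iodine gap of at least 1. Between the groups 0 of the 46 passed the adjusted threshold, 9 had a higher and 37 a lower mean in iodine (54.3% of all genes were lower), and the median difference was -0.19. Without 20-fold iodine replicate 2 that median was 0.48, and without 20-fold iodine replicate 3 it was -0.86. An unadjusted p under 0.05 was found for 1 of the 46 (2.17%), against 7.38% of all genes.

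Most secreted proteins and carriers followed the 10 genes, with 12 of 15 in the same order of arrays and a smaller median iodine gap, at 1.41. F5, coagulation factor V, had log2 signals of 5.12 and 7.47 in 20-fold iodine, against 6.88 and 6.73 in control. Ecrg4, which encodes a secreted peptide precursor, had 7.66 and 9.69 in iodine and 8.89 and 8.71 in control. Slco1a5, an organic anion transporter, had 2.43 and 4.29 in iodine and 3.98 and 3.70 in control. Slco1c1, an organic anion transporter that also carries thyroxine, had an iodine gap of 0.26 only. It is also active in cells outside the plexus, and it was picked out after its values were seen. Stra6, picked out in the same way, ran against the list, at 9.47 and 8.91 in iodine and 9.86 and 9.35 in control.

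Other epithelial genes gave 17 of 19 in that order, with a median gap of 1.69. Wdr86 had log2 signals of 4.90 and 7.62 in 20-fold iodine, against 7.05 and 6.64 in control. Cox8b, a subunit of cytochrome c oxidase, had 5.39 and 7.95 in iodine and 7.61 and 7.55 in control, and Krt18, an epithelial keratin, had 5.58 and 7.99 in iodine and 7.12 and 7.22 in control. Ion transport genes showed it least, with 6 of 12 and a median gap of 0.30. Within that list the bicarbonate transporter gene Slc4a5 had 4.61 and 6.98 in iodine and 6.25 and 6.28 in control, the sulfate transporter gene Slc13a4 had 8.18 and 10.01 in iodine and 9.60 and 9.84 in control, and the cation channel gene Trpv4 had 6.15 and 7.79 in iodine and 7.07 and 6.95 in control. In these 3 genes the iodine pair enclosed the controls, as in the 10.

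The known partners of Kcne2 did not share its profile. Kcnq1, the pore subunit that pairs with it, had log2 signals of 3.86 and 3.89 in 20-fold iodine, against 3.15 and 3.12 in control. Its groups did not overlap, and the difference was 0.75 ± 0.07 (SE, limma adjusted p = 0.668), but 1 of its 4 kept probes gave -0.26. Slc5a3, a myo-inositol transporter, had 6.50 and 6.58 in iodine and 6.17 and 6.07 in control (0.42 ± 0.08, adjusted p = 0.668), with a second probe at 0.07. Kcna3, a voltage-gated potassium channel gene, had 3.84 and 3.92 in iodine and 3.79 and 3.90 in control (0.03 ± 0.08, adjusted p = 0.943). By their brightest probes, all 3 had iodine gaps of at most 0.08, against 2.01 for Kcne2. Dimmer probes had wider gaps, with 6.04 and 6.31 in 20-fold iodine replicates 2 and 3 for Slc5a3. The widest for Kcnq1 had 2.28 and 2.62.

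Kcne2 and Clic6 lie near each other on chromosome 16, with 11 genes listed between them in the RefSeq table, of which 3 were tested and the other 8 have no value here. Rcan1, an inhibitor of calcineurin, had log2 signals of 10.27 and 10.16 in 20-fold iodine, against 10.23 and 10.23 in control. Smim11 had 9.42 and 9.47 in iodine and 9.55 and 9.56 in control. Kcne1, the paralog of Kcne2, had 2.80 and 3.22 in iodine and 2.79 and 2.86 in control. Their iodine gaps of -0.11, 0.05 and 0.42 are small beside the 2.01 of Kcne2 and the 2.37 of Clic6.

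The genes most like Ttr were sought outside the choroid plexus lists, by the Euclidean distance between 4-array profiles, each centred on its own mean. Over 4 arrays the nearest 10 were Rd3, Wfdc2, Gata3, A2m, Dmgdh, Baiap2l1, Otx2os1, Pla2g5, Tex22 and Smim22, at distances of 0.22 to 0.37. Of these, Rd3, Gata3, Dmgdh and Baiap2l1 were well above background on only 1 iodine array, and Dmgdh on only 1 control array. Their log2 signals on 20-fold iodine replicate 2 were low, at 1.53, 0.87, 1.03 and 2.12. Wfdc2, a secreted protease inhibitor family member, had log2 signals of 5.71 and 8.10 in 20-fold iodine, against 7.25 and 7.43 in control. Otx2os1, named as an opposite strand transcript of Otx2, had 2.48 and 5.14 in iodine and 4.03 and 3.82 in control, and A2m, a plasma protease inhibitor gene, had 2.55 and 4.92 in iodine and 3.83 and 3.87 in control. Among the choroid plexus genes Clic6 (0.12), Cldn2 (0.14), F5 (0.16) and Otx2 (0.17) were nearer to Ttr than any of these. So were Calml4 (0.19), Slc4a5 (0.19) and Krt18 (0.20). Of the 50 genes nearest to Ttr, 7 were others of the 10, 14 were other choroid plexus genes and 29 were neither. Kl was the furthest of the 10 choroid plexus genes from the mean profile of the 10 (0.61) and Kcne2 the nearest (0.06).

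Markers of neighbouring cell types moved with the choroid plexus genes to different degrees. Meningeal fibroblast genes, all 12 of 12 well above background, had a median iodine gap of 1.20, and 6 of 12 had both controls between the iodine arrays. Ptgds, prostaglandin D synthase, had log2 signals of 13.69 and 15.17 in 20-fold iodine, against 14.98 and 15.11 in control. Slc6a13, a GABA transporter, had 7.29 and 8.67 in iodine and 7.70 and 8.80 in control, and Fmod, a matrix protein, had 4.32 and 6.10 in iodine and 5.80 and 5.90 in control. The summed signal of the meningeal list was 16248 and 41924 in iodine and 36766 and 40426 in control. That of the 10 choroid plexus genes was 8300 and 41876 in iodine and 25288 and 22427 in control. Each sum was mostly 1 gene, since Ptgds made up 81.2 to 88.2% of the meningeal sum and Ttr 89.8 to 91.8% of the other. Without Ptgds, the other 11 meningeal genes summed to 3055 and 4934 in iodine and 4405 and 5127 in control. Without Ttr, the other 9 choroid plexus genes summed to 847 and 3416 in iodine and 2246 and 2139 in control. In both lists, with or without the brightest gene, iodine replicate 2 was the lowest array. The part of other cell types in the result was not tested.

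Ependymal genes, of cells that line the ventricles, had 10 of 12 tested and a median iodine gap of 0.51, with none reaching 1. Dnah11, a motor protein of cilia, had log2 signals of 3.75 and 4.47 in 20-fold iodine, against 3.58 and 4.07 in control. Cfap126, a gene of motile cilia, had 7.38 and 8.15 in iodine and 7.78 and 7.87 in control. Their summed signal was 1143 and 1589 in iodine and 1209 and 1394 in control. Thalamus and habenula genes had a median gap of 0.56, with Tcf7l2, a transcription factor of the Wnt pathway, at 6.58 and 7.89 in iodine and 6.80 and 6.71 in control. The summed signal of the thalamus and habenula list was 1914 and 2553 in iodine and 2075 and 1959 in control.

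Hippocampal neuron genes mostly ran the other way, with a median iodine gap of -0.29 and a median control gap of 0.15 over 10 genes. Of the 10, 0 were highest on iodine replicate 3 (21.9% of all genes were). Wfs1, picked out after its values were seen, had an iodine gap of 0.08. C1ql2, a synaptic protein of granule cells, had log2 signals of 6.86 and 6.58 in 20-fold iodine, against 6.19 and 6.83 in control. Its control gap of 0.64 was thus wider than its iodine gap of -0.28. The list's summed signal was 10201 and 8708 in iodine and 8979 and 9506 in control, and the part of this shift was not tested. Brain endothelial genes had a median gap of 0.17 over 8 genes. Of 3 genes of fenestrated vessels, the kind found in the plexus stroma, Esm1 had 2.35 and 4.39 in iodine and 4.35 and 4.10 in control, while Plvap had 8.09 and 8.25 in iodine and 7.99 and 8.22 in control and Emcn had 7.47 and 7.59 in iodine and 7.22 and 7.31 in control.

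Genes of further tissues were also measured. Of 8 anterior pituitary genes, Tshb, Fshb and Pou1f1 were not well above background on any array, and the 5 tested had a median iodine gap of -0.23. The groups did not overlap in 4 of the 5 (39.9% of all genes), each brighter in iodine, and did in Lhb, a gonadotropin subunit, at a difference of -0.11. Gh, growth hormone, had log2 signals of 6.89 and 6.66 in 20-fold iodine, against 4.19 and 5.04 in control (limma adjusted p = 0.668). Prl, prolactin, had 10.73 and 10.16 in iodine and 7.54 and 9.42 in control. Retinal pigment epithelium genes, a tissue that also uses Otx2, Ttr and Kcnj13, had a median gap of -0.02 over 4 tested genes, and Tyrp1 was not well above background on any array. Rpe65, the visual cycle isomerase, had 1.64 and 3.16 in iodine and 3.51 and 2.37 in control, above background on 1 array of each group. Pineal genes had a median gap of 0.09 over 3 genes, and both controls lay between the iodine arrays in 1 of the 3. That gene, Aanat, which makes the melatonin precursor, had 6.96 and 7.22 in iodine and 7.19 and 7.06 in control. Tph1, of the widest range among the 3, had 2.80 and 2.67 in iodine and 2.18 and 2.20 in control. Tph1 was not well above background on either control array. Liver genes had a median gap of 0.15 over 3 genes, and of these Serpina1a, a protease inhibitor, had the order of the choroid plexus genes, at 1.05 and 2.53 in iodine and 2.51 and 1.97 in control.

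**Figure D4:**
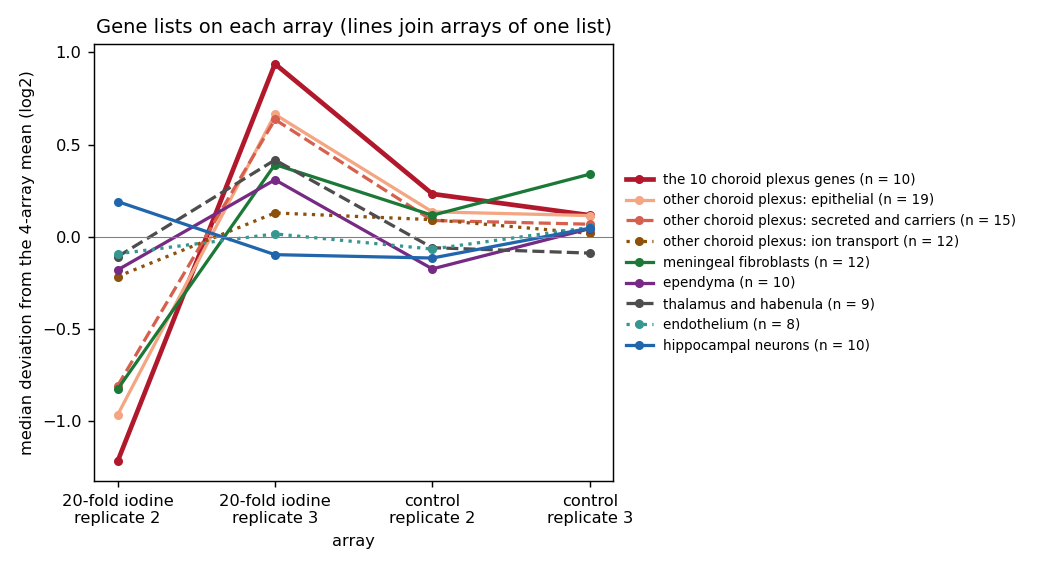
Median deviation of each gene list from its genes' 4-array means, by array, log2 signal; lines join the 4 values of a list, with the number of genes tested. The 10 choroid plexus genes stand at -1.22 and 0.94 on 20-fold iodine replicates 2 and 3 and at 0.23 and 0.12 on the controls, while hippocampal neuron genes stand at 0.19, -0.10, -0.12 and 0.05.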

How the data were processed

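Each array was hybridised with Cy3-labelled RNA, and the authors deposited the scanner output. Per the file headers, the software was Feature Extraction 12.1.1.1 (Agilent). The intensity used is the deposited processed signal, background-subtracted and detrended within the array per the file headers, and not normalized between arrays. Spots of a probe were averaged on the log2 scale without flagged outliers (47 to 70 spots per array), and each array's 75th percentile was subtracted (signals of 149.7 and 144.3 in 20-fold iodine, 158.8 and 154.2 in control), with the mean added back. The deposited flags for well above background and outliers were used as given by the authors. Of 56605 probes, each array had 37533 to 37921 clear of background, and the 38231 that were so on 2 or more arrays were kept. RefSeq accessions (GRCm38.p6) named 32994 probes (58.3%). The array header names an older build, so the RefSeq table served for names, the order of neighbouring genes and promoter windows, whose coordinates are those of GRCm38.p6. Each gene took its brightest kept probe. Groups were compared with limma 3.58.1 in R 4.3.3 (two-sided, Benjamini-Hochberg over all genes), tested on simulated data. The number of arrays limits the precision. Plots used matplotlib 3.10.9.

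The genes and lists were chosen with earlier results of these data known. Named from each other list were the 3 tested genes of widest range over the arrays, fewer in some lists, and every Kcne2 partner. Slco1c1, Stra6, Wfs1 and Calml4 fall outside that rule and were named after their values were seen. The 10 genes nearest to Ttr were named outside the choroid plexus lists, without predicted models. Mean spot signal, set out in the plan for the normexp alternative, was replaced by the deposited median spot and background intensity. Some genes of the lists are counted but not reported here by name.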

Additional observations from a re-analysis of the deposited data

How the results depend on the processing

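In every alternative run, 0 of the 10 genes and 0 genes overall had a limma adjusted p under 0.05. In each alternative that kept all 4 arrays, all 10 were highest on 20-fold iodine replicate 3 (with every probe on its own, 13 of 13 probes) and 0 had groups apart. The replicate number as a block, which leaves the median difference at -0.36, changed no call. Same-numbered arrays of the groups did not deviate together (r = -0.02 over genes), and the labels give no pairing.

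Without control replicate 3, Aqp1 (0.040) and Sostdc1 (0.0015) were above 0. Leaving out each array in turn gave ranges for Ttr of -1.54 to 0.83, Folr1 of -1.44 to 0.41, Kl of -0.73 to 0.54, Clic6 of -1.66 to 0.71 and Kcnj13 of -1.86 to 0.64. The range was, for Cldn2, -1.38 to 0.88, for Otx2 -1.50 to 0.74, for Aqp1 -1.23 to 1.03, for Sostdc1 -0.80 to 0.74 and for Kcne2 -1.37 to 0.64. The median of the 10 ran from -1.41 to 0.72 and that of the other choroid plexus genes from -0.86 to 0.48. The count of the 10 with groups apart ran from 0 to 10 (10 without either iodine array, when 71.6 to 73.4% of all genes are apart). The count with a range of at least 1 ran from 1 to 10. The order of arrays cannot be asked without 20-fold iodine replicate 3.

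With normexp, and with normexp and quantile normalization, the sign turned for Aqp1 (0.022 and 0.034), Cldn2 (0.079 and 0.028) and Sostdc1 (0.036 and 0.021). Normexp adds an offset of 50, which draws dim signals together, and the median iodine gap was then 1.5002, or 1.54 with quantile normalization added, against 2.25 in the main setting. A range of at least 1 was then found in 8 of the 10 genes. Among all genes 1239 had an unadjusted p under 0.05, and 3451 probes did with every probe on its own. The stricter description (that p, 1.5-fold or more, groups apart) held for 174 genes. That count was 24 with normexp, 21 with normexp and quantile normalization, 441 with no filter, 98 with the strict filter on all 4 arrays, 595 with every probe, and 325 to 437 without each array. Why these counts moved was not tested. Alternatives for the probes and for the iodine gap were chosen after seeing the data.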
